A study of Mus musculus with 15 samples.

Results

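Mbp encodes myelin basic protein, and its mRNA was followed here in the mouse striatum after a bleed into the brain. Mbp was found through its accession: of the 50 probes on the array that carry one, 1 probe, with a name starting A_51_P, points to a RefSeq transcript of Mbp. It is thus 1 of 60823 probes on the array, 1 of 51669 probes that were tested and 1 of 45 tested probes that carry a gene symbol. RNA of 15 samples from the striatum (the protocol says basal ganglia) on the side of the operation in male mice was measured on 1-colour Agilent arrays, with 5 samples in each of 3 groups taken on day 14. Sham mice were gavaged with distilled water. ICH mice had an intracerebral hemorrhage, a bleed into the brain tissue, and were gavaged with the same volume of water. BYHWD mice had the hemorrhage and were gavaged once a day with Buyang Huanwu decoction, a herbal formula of traditional Chinese medicine, at 6.19 g/kg. All mice were perfused with saline before the tissue was taken. Strain, age and the way the hemorrhage was made are not given in the sources used here. Nothing in the labels says whether the samples of a group are separate mice. The p-values therefore refer to the spread of these samples, which may be technical.

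Myelin basic protein lies on the inner face of the oligodendrocyte membrane and holds the layers of the myelin sheath together. Its mRNA is among the most abundant of mature oligodendrocytes and is carried along their processes to be translated at the sheath. In the striatum, bundles of myelinated fibres of the internal capsule run between the neurons, and the mRNA is commonly read as a measure of mature oligodendrocytes. The same gene also yields the golli transcripts, which start upstream and are made in neurons and immune cells as well. RefSeq lists 17 transcripts of Mbp (GRCm38.p6), and the files do not say which of them the probe reads. In bulk tissue, fewer oligodendrocytes and less Mbp RNA per cell cannot be told apart.

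The arrays carry 3 scan identifiers, and arrays that share 1 identifier are called a slide here. The slides were told apart by this identifier alone, which names a scan. They were not shared evenly between the groups. All sham arrays shared slide 1 with ICH 2 and ICH 3. The remaining ICH arrays (ICH 1, 4 and 5) were on slide 2, and slide 3 held BYHWD arrays alone. ICH and sham can therefore be compared within slide 1, while BYHWD and its slide cannot be told apart. Well above background were 81.4% to 86.2% of an array's spots, controls left out, and precision is limited by the number of arrays. The labelled tissue could not be checked against its markers, since none of the 14 markers of striatal neurons has a named probe.

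The Mbp probe was among the brightest probes of every array, which gives no order of transcript abundance. It is printed at 10 places, and after spots marked as outliers were left out, 7 to 10 spots remained per array. Their processed signal averaged 120021 units on sham 1, 130268 on sham 2, 149632 on sham 3, 119792 on sham 4 and 130388 on sham 5. On the ICH arrays it averaged 84497 units on ICH 1, 152526 on ICH 2, 132820 on ICH 3, 79182 on ICH 4 and 83985 on ICH 5. On the BYHWD arrays it averaged 101474, 112207, 92603, 106768 and 111839 units on BYHWD 1 to 5. The unscaled signal of the 3 ICH arrays of slide 2 lay below that of all other arrays, and that of the 5 BYHWD arrays lay between them and the sham arrays. The median signal of the spot was 3523 to 9247 times its local background. The brightest Mbp spot reached 10.8% to 20.5% of the scanner's saturation value, so no reading was near the upper limit.

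The arrays also differed in brightness as a whole, with exceptions to a shared order: sham 4 had the highest 75th percentile and the lowest unscaled Mbp signal in sham. The 75th percentile of the signal over all spots that are not controls, the value used to scale each array, was 482 ± 42.7 units for sham, 342 ± 88.8 for ICH and 337 ± 46.7 for BYHWD (SD, n = 5 each). Within ICH it was 437 ± 23.1 on slide 1 (SD, n = 2) and 279 ± 21.8 on slide 2 (SD, n = 3). Over the 15 arrays the log2 of the 75th percentile spanned 1.05 units and the log2 of the unscaled Mbp signal 0.95 units, while the scaled level, the difference of these values, spanned 0.65 units. GE_BrightCorner, a grid control spot of similar brightness, moved by slide too. Its unscaled log2 signal was 17.34 ± 0.11 in sham (SD, n = 5), 17.28 ± 0.06 on the ICH arrays of slide 1 (SD, n = 2), 16.20 ± 0.20 on those of slide 2 (SD, n = 3) and 16.80 ± 0.06 in BYHWD (SD, n = 5).

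**Figure D1:**
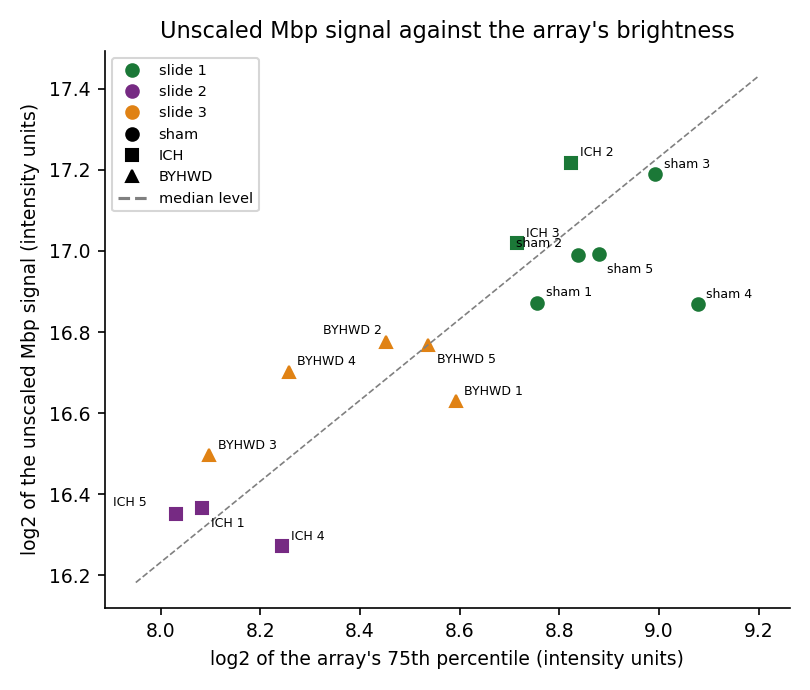
Log2 of the unscaled Mbp signal (vertical axis, intensity units) against log2 of the array's 75th percentile (horizontal axis, intensity units), 1 point for each of the 15 arrays, with colour for the slide and shape for the group. The dashed line marks the median scaled level over the arrays (8.23); sham 4 lies farthest below it, at a scaled level of 7.79, and the ICH arrays of slide 2 lie at the dim end of both axes.

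The first comparison asked whether Mbp RNA differed in the striatum 14 days after hemorrhage. On the log2 scale relative to the 75th percentile, the level of Mbp was 8.12 on sham 1, 8.15 on sham 2, 8.20 on sham 3, 7.79 on sham 4 and 8.11 on sham 5. In ICH it was 8.28 on ICH 1, 8.39 on ICH 2, 8.30 on ICH 3, 8.03 on ICH 4 and 8.32 on ICH 5. All ICH arrays but 1 lay above every sham array, and ICH 4 lay below all sham arrays other than sham 4. The group means were 8.07 ± 0.16 in sham and 8.27 ± 0.14 in ICH (SD, n = 5 each). These levels correspond to 271 ± 28.3 and 309 ± 28.4 times the 75th percentile (SD, n = 5 each).

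Mbp did not pass the test between ICH and sham. The log2 difference was 0.19 ± 0.11 SE, a ratio of 1.14 with a 95% interval from 0.968 to 1.35 (limma adjusted p = 0.272). Of all tested probes, 5.03% passed in this comparison, and 45.9% had a difference closer to 0 than that of Mbp. The exact permutation test of Mbp alone, over all 252 groupings of the 10 arrays, gave a 2-sided p of 0.0714, where the smallest possible is 0.00794. With each array's median in place of its 75th percentile the log2 difference was 0.12 (limma adjusted p = 0.561). Without any scaling between arrays it was -0.34 (limma adjusted p = 0.136), where the median over all tested probes was -0.48.

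Within slide 1, where both groups were scanned together, ICH 2 and ICH 3 lay above all 5 sham arrays. Their log2 difference from sham was 0.27 ± 0.14 SE (95% interval -0.03 to 0.58, limma adjusted p = 0.920, with the spread taken from all 15 arrays). In this fit 0.339% of the tested probes passed. For the 3 ICH arrays of slide 2 the log2 difference from sham was 0.14 ± 0.12 SE (limma adjusted p = 0.420), in a fit where 36.5% of the probes passed. The sham arrays were the same in both. Between the slides themselves, the ICH arrays of slide 2 differed from those of slide 1 in Mbp by -0.14 ± 0.16 SE on the log2 scale (limma adjusted p = 0.572), while 22% of the tested probes passed. With 3 arrays against 2, the exact permutation test has 10 groupings and gave p = 0.5.

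Sham 4 weighed on the comparison with sham. Its level of 7.79 lay 0.28 below the sham mean, and the other sham arrays lay between 8.11 and 8.20. Sham 4 had the highest 75th percentile of all arrays (540 units), while its unscaled Mbp signal was close to that of sham 1. Without sham 4 the remaining sham arrays had a mean of 8.14 ± 0.04 (SD, n = 4), and the log2 difference of ICH from sham was 0.12 (limma adjusted p = 0.508). With median scaling sham 4 was also the lowest sham array (10.01). With quantiles sham 1 (16.27) lay below sham 4 (16.34), and by rank sham 1 stood farther from the top (525 against 501).

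**Figure D2:**
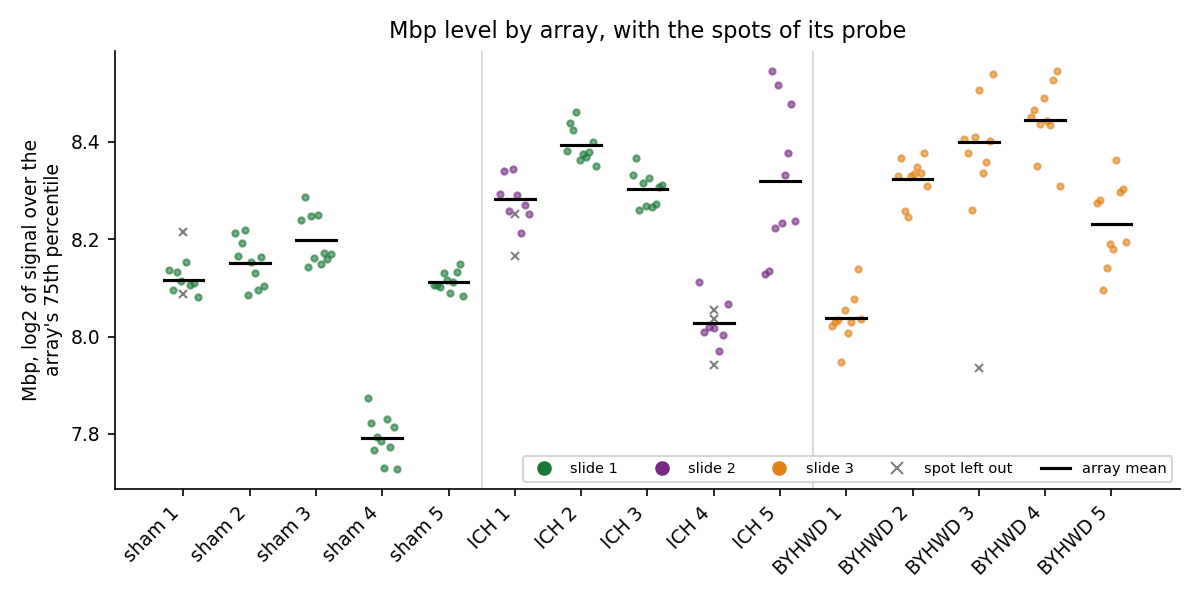
Mbp level on each array as log2 of the signal over the array's 75th percentile; points are the spots of the probe, crosses are spots left out as outliers, the black line is the array's mean and colour gives the slide. Spots of 1 array lie close together on most arrays, and sham 4 (7.79), ICH 4 (8.03) and BYHWD 1 (8.04) are the lowest arrays of their groups.

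The treatment comparison asked whether Mbp differed in mice with hemorrhage that were given the decoction. The level was 8.04 on BYHWD 1, 8.32 on BYHWD 2, 8.40 on BYHWD 3, 8.45 on BYHWD 4 and 8.23 on BYHWD 5, with a mean of 8.29 ± 0.16 (SD, n = 5). The BYHWD arrays spanned nearly the range of the ICH arrays: BYHWD 3 and BYHWD 4 were above all ICH arrays, and the lowest, BYHWD 1, was close to ICH 4. The log2 difference from ICH was 0.02 ± 0.11 SE, a ratio of 1.02 with a 95% interval from 0.861 to 1.20 (limma adjusted p = 0.913). In this comparison 6.13% of the tested probes passed, and 4.95% had a difference closer to 0. Against the ICH arrays of slide 1 the log2 difference was -0.06 ± 0.14 SE (limma adjusted p = 0.846), in a fit where 7.17% of the probes passed. Against those of slide 2 it was 0.08 ± 0.12 SE (limma adjusted p = 0.675), where 27.7% passed. The exact permutation test of Mbp alone gave a 2-sided p of 0.770. The sign of this small difference turned when ICH 4 (-0.038), BYHWD 3 (-0.0062) or BYHWD 4 (-0.018) was left out.

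A further comparison, of BYHWD with sham, placed the treated mice relative to those without the hemorrhage. The log2 difference of Mbp was 0.21 ± 0.11 SE, a ratio of 1.16 with a 95% interval from 0.983 to 1.37 (limma adjusted p = 0.200). Of the tested probes, 17.3% passed. All BYHWD arrays but 1 lay above every sham array, and BYHWD 1 lay above sham 4 alone. The exact permutation test gave a 2-sided p of 0.0635. This comparison shares the sham arrays with the first, and without sham 4 the log2 difference was 0.14 (limma adjusted p = 0.385). Without any scaling between arrays it was -0.31 (limma adjusted p = 0.176), where the median over all tested probes was -0.50.

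The order of the group means was thus BYHWD, ICH and sham from the highest to the lowest, and no neighbours in that order differed past the test at this scaling. Over single arrays, BYHWD 4 (8.45), BYHWD 3 (8.40) and ICH 2 (8.39) were the highest, and BYHWD 1 (8.04), ICH 4 (8.03) and sham 4 (7.79) the lowest. Each group had an array among the 3 lowest.

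The rank of Mbp within its own array gives a reading that needs no scaling between arrays. It ran from number 181 from the top on ICH 1 to number 525 on sham 1. The share of tested probes brighter than Mbp was 1.01%, 0.815%, 0.600%, 0.968% and 0.743% on sham 1 to 5. It was 0.348%, 0.633%, 0.741%, 0.364% and 0.434% on ICH 1 to 5, and 0.677%, 0.561%, 0.577%, 0.656% and 0.581% on BYHWD 1 to 5. On the 3 ICH arrays of slide 2 Mbp stood nearer the top than on any other array. The ICH arrays of slide 1 (ranks 328 and 384) lay within the sham range of 311 to 525, and the BYHWD arrays kept a narrow range of 291 to 351 that overlapped both groups.

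The geometric mean rank of ICH was 0.592 times that of sham, where a smaller number is nearer the top (2-sided exact permutation p = 0.0317, adjusted p over the 3 rank comparisons 0.0476). For BYHWD it was 0.749 times that of sham (2-sided exact permutation p = 0.0238, adjusted p = 0.0476). For BYHWD against ICH the ratio was 1.26 (2-sided exact permutation p = 0.159, adjusted p = 0.159). These rank tests were chosen after the values had been seen. The 3 ranks nearest the top in ICH all came from slide 2, and BYHWD has a slide of its own.

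**Figure D3:**
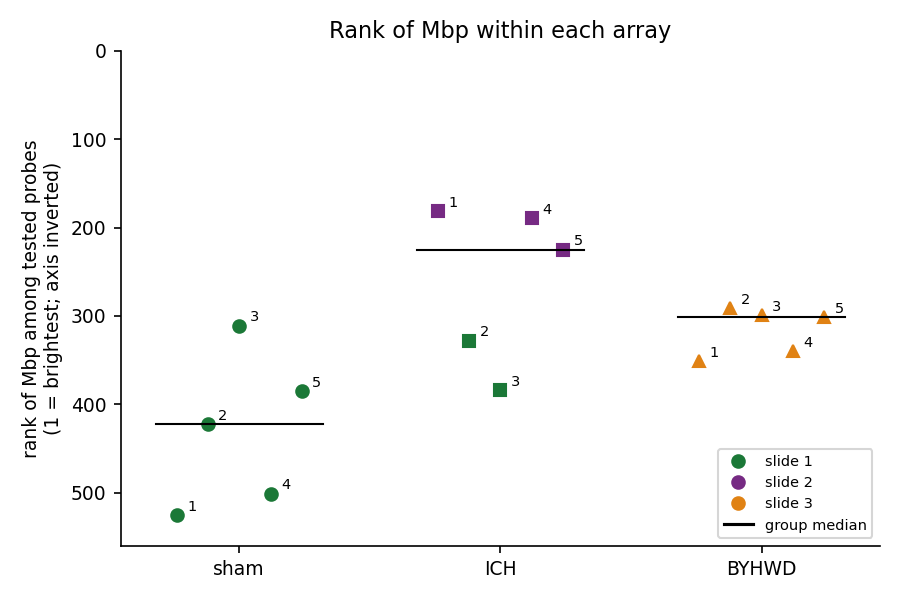
Rank of Mbp among the 51669 tested probes of each array (vertical axis, 1 is the brightest, axis inverted), by group, with the replicate number beside each point, colour for the slide and a line at the group median. The 3 ICH arrays of slide 2 stand nearest the top (181 on ICH 1, 189 on ICH 4), above the ICH arrays of slide 1 at 328 and 384, which lie within the sham range of 311 to 525.

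Probes as bright as Mbp moved in another way than Mbp. Within 0.5 log2 units of its mean level lay 368 other tested probes, among them 1 named gene, Apoe. Their median log2 difference between ICH and sham was -0.28, against 0.05 over all tested probes and 0.19 for Mbp, and 21 of the 368 had a higher difference than Mbp. Within ICH, slide 2 less slide 1, their median was -0.65, where Mbp stood at -0.14. Within slide 1 their median difference between ICH and sham was 0.10, and 3 of the 368 lay above Mbp. Between BYHWD and ICH their median was 0.26, and 319 of the 368 lay above Mbp. The sign turned with the slide of the ICH arrays. Against slide 1 their median was -0.16, with 135 above Mbp, and against slide 2 it was 0.52, with 322 above Mbp. These values describe a window of brightness and carry no test.

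Quantile normalization gives all arrays the same distribution of values and so removes such a shift of bright probes. With it the log2 difference of Mbp between ICH and sham was 0.44 (95% interval 0.16 to 0.71, limma adjusted p = 0.0568). After an additional background correction by normexp it was 0.45 and passed the test (limma adjusted p = 0.0483), the smallest adjusted p of 35 alternatives for this difference of level, whose largest was 0.987. With quantiles and a fixed slide term, so that the difference comes from slide 1, it was 0.19 (95% interval -0.10 to 0.47, limma adjusted p = 0.987). Also with quantiles, the ICH arrays of slide 2 lay above those of slide 1 in Mbp by 0.42 (limma adjusted p = 0.0548), opposite in sign to the value at the 75th percentile. BYHWD then differed from ICH by -0.15 (95% interval -0.42 to 0.12, limma adjusted p = 0.436) and above sham by 0.29 (95% interval 0.01 to 0.56, limma adjusted p = 0.136). On slide 1 the difference between ICH and sham was thus 0.27 at the 75th percentile and 0.19 with quantiles and passed with neither, while the sign between the slides turned with the scaling.

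**Figure D4:**
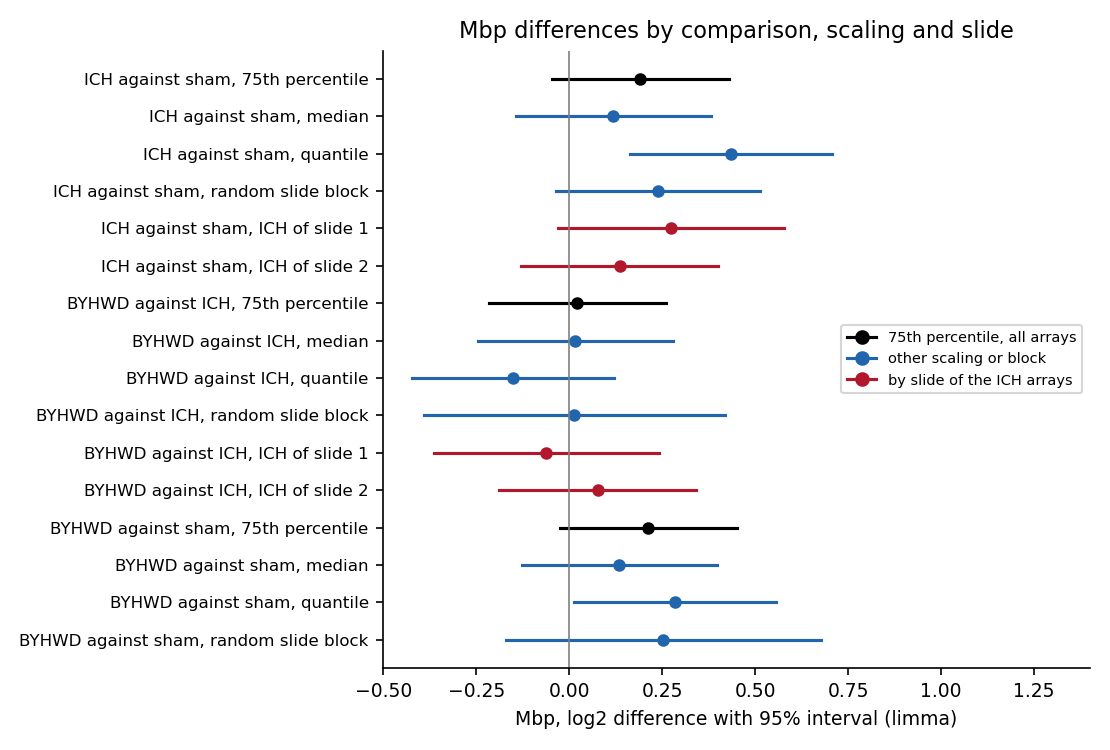
Log2 difference of Mbp (horizontal axis) with its 95% interval from limma for the 3 comparisons, by scaling, with the slide as a random block, and by the slide of the ICH arrays. The interval at the 75th percentile includes 0 in each comparison; after quantile normalization those against sham exclude 0 before adjustment (0.44 for ICH and 0.29 for BYHWD).

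The 10 printed spots of the probe show how closely the spots of 1 array repeated each other. The coefficient of variation between spots of 1 array was 1.41% to 10.8%, with a median of 3.27%. The pooled SD between spots was 0.06 log2 units and the resulting standard error of an array's mean 0.02, while the SD between arrays of a group was 0.15 log2 units. The spread between arrays was thus several times this standard error. The spots of an array share its RNA and its scaling value, so the standard error leaves out technical differences between arrays. GE_BrightCorner, scaled in the same way, had an SD between arrays of 0.18 in sham, 0.30 in ICH and 0.16 in BYHWD. The largest spot spread was on ICH 5, where the processed signal ran from 73098 to 97703 units and the SD between spots was 0.15 log2 units. On ICH 5 the coefficient of variation of the raw median signal of the same spots was 6.12%, below the 10.8% of the processed signal, and the ratio of processed to raw signal ran from 0.851 to 1.25. On the 5 sham arrays this ratio stayed between 0.949 and 1.04. Averaged over the 15 arrays, with all printed spots kept, positions deviated from their array's mean by -0.07 to 0.05 log2 units. The pooled SD between spots was 0.06. The lowest of the 10 positions was below its array's mean on all arrays but 1, and the highest was above it on 12.

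The Mbp probe varied little between arrays compared with most probes. Its residual SD of 0.15 log2 units was smaller than the median of 0.25 over all tested probes, and 11.6% of them had a smaller one. Among the 44 other named genes, 13 had a smaller SD. Among the 368 probes of like brightness, 20 did, and their median SD was 0.27.

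No other myelin gene could be read by name. Of the 23 myelin sheath genes listed for this purpose, among them Mog, Mag, Mobp and Cnp, Mbp was the sole member with a named probe. Of the 24 genes of mature oligodendrocytes none had one. Of the 22 genes of cholesterol and myelin lipid synthesis, Apoe, the lipid carrier that supplies cholesterol between brain cells, had a named probe. Apoe was also the sole named gene of the 14 listed for microglia and macrophages.

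Of the 10 genes of lymphocytes and plasma cells, Mzb1, a chaperone of antibody-making cells, and Il2, a T-cell cytokine, had a named probe. Both passed the test between ICH and sham, which 5.03% of all tested probes did. In both, the difference from sham was larger for the ICH arrays of slide 2 than for those of slide 1. Both probes were dim. Their mean log2 level over the 15 arrays, relative to each array's scaling value, was -3.14 for Mzb1 and -4.44 for Il2. That scaling value averaged 279 units on the ICH arrays of slide 2 and 482 in sham. The part of background and scaling in these differences was not tested. Over all arrays the log2 difference was 0.69 ± 0.16 SE for Mzb1 (limma adjusted p = 0.0266) and 1.16 ± 0.31 SE for Il2 (limma adjusted p = 0.0431). Within slide 1 it was 0.29 for Mzb1 (limma adjusted p = 0.844) and 0.17 for Il2 (limma adjusted p = 0.989), and neither passed. The ICH arrays of slide 2 exceeded those of slide 1 by 0.67 in Mzb1 (limma adjusted p = 0.00546) and by 1.66 in Il2 (limma adjusted p = 1.06e-05). Of all tested probes, 22% passed between these slides. Between BYHWD and ICH the log2 difference was -0.05 ± 0.16 SE for Mzb1 (limma adjusted p = 0.850) and -0.90 ± 0.31 SE for Il2 (limma adjusted p = 0.0853), and its sign turned with the slide of the ICH arrays. For Mzb1 it was 0.35 against slide 1 (limma adjusted p = 0.141) and -0.32 against slide 2 (limma adjusted p = 0.0621). For Il2 it was 0.10 against slide 1 (limma adjusted p = 0.7498) and -1.56 against slide 2 (limma adjusted p = 4.13e-06). Of all tested probes, 7.17% passed against slide 1 and 27.7% against slide 2. Markers of astrocytes (10 genes), endothelium and pericytes (7), red blood cells (5) and choroid plexus and ependyma (4) had no named probe. The part of other cell types in the Mbp values was not tested.

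By Pearson correlation over the 15 arrays, the named genes most like Mbp were Apoe, H2-Q7 and Gsdmd. The correlation was 0.76 for Apoe (Spearman 0.70), 0.67 for H2-Q7, a class I histocompatibility gene (Spearman 0.59), and 0.67 for Gsdmd, the pore-forming protein of pyroptosis (Spearman 0.61). These genes were chosen for this likeness out of 44, and the arrays share slides and scaling, so the values are a description. H2-Q7 has closely similar relatives, which its probe may read too. The median over the 44 genes was 0.04. Within the 7 arrays of slide 1 the Pearson correlation was 0.75 for Apoe, 0.75 for H2-Q7 and 0.78 for Gsdmd, and after each group's mean was removed it was 0.66, 0.54 and 0.55. Without sham 4 and BYHWD 4, the arrays farthest from the median of Mbp, it was 0.70, 0.69 and 0.68. The order of genes depended on the measure. H2-M2, next by Pearson (0.66), was first by Spearman (0.72) and without those 2 arrays (0.80). Gamt was first on slide 1 (0.87) and with group means removed (0.71), and Gpi1 with quantiles (0.85). These 3 genes are named after their values were seen.

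The sizes of these patterns differed widely. The log2 level of Apoe was 7.48 ± 0.11 for sham, 8.43 ± 0.28 for ICH and 8.41 ± 0.37 for BYHWD (SD, n = 5 each), so that its difference between ICH and sham was 0.94 ± 0.17 SE (limma adjusted p = 0.00825) where that of Mbp was 0.19. For Apoe, H2-Q7 and Gsdmd no ICH array reached down into the sham range, whereas for Mbp ICH 4 did. How many of all tested probes separate ICH from sham in this way was not counted. Of all tested probes, 5.03% passed the test between ICH and sham. At the percentile scaling, the array with the lowest Mbp level of each injured group was also the lowest for the other 3 genes. On ICH 4, Apoe stood at 8.07, H2-Q7 at 2.94 and Gsdmd at -1.44. On BYHWD 1 they stood at 7.78, 2.30 and -1.97. In sham, sham 4 was the lowest for Mbp, Apoe (7.33) and Gsdmd (-2.28), and sham 1 was the lowest for H2-Q7 (1.45). With quantiles BYHWD 1 was still the lowest BYHWD array for Mbp (16.72). ICH 4 then stood at 17.15 for Mbp, and ICH 3 was the lowest ICH array (16.63). The other 3 genes were chosen for their likeness to Mbp over these same arrays, so the joint low is no independent result. The genes of an array share its scaling value, and the part of this value in the joint low was not tested.

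**Figure D5:**
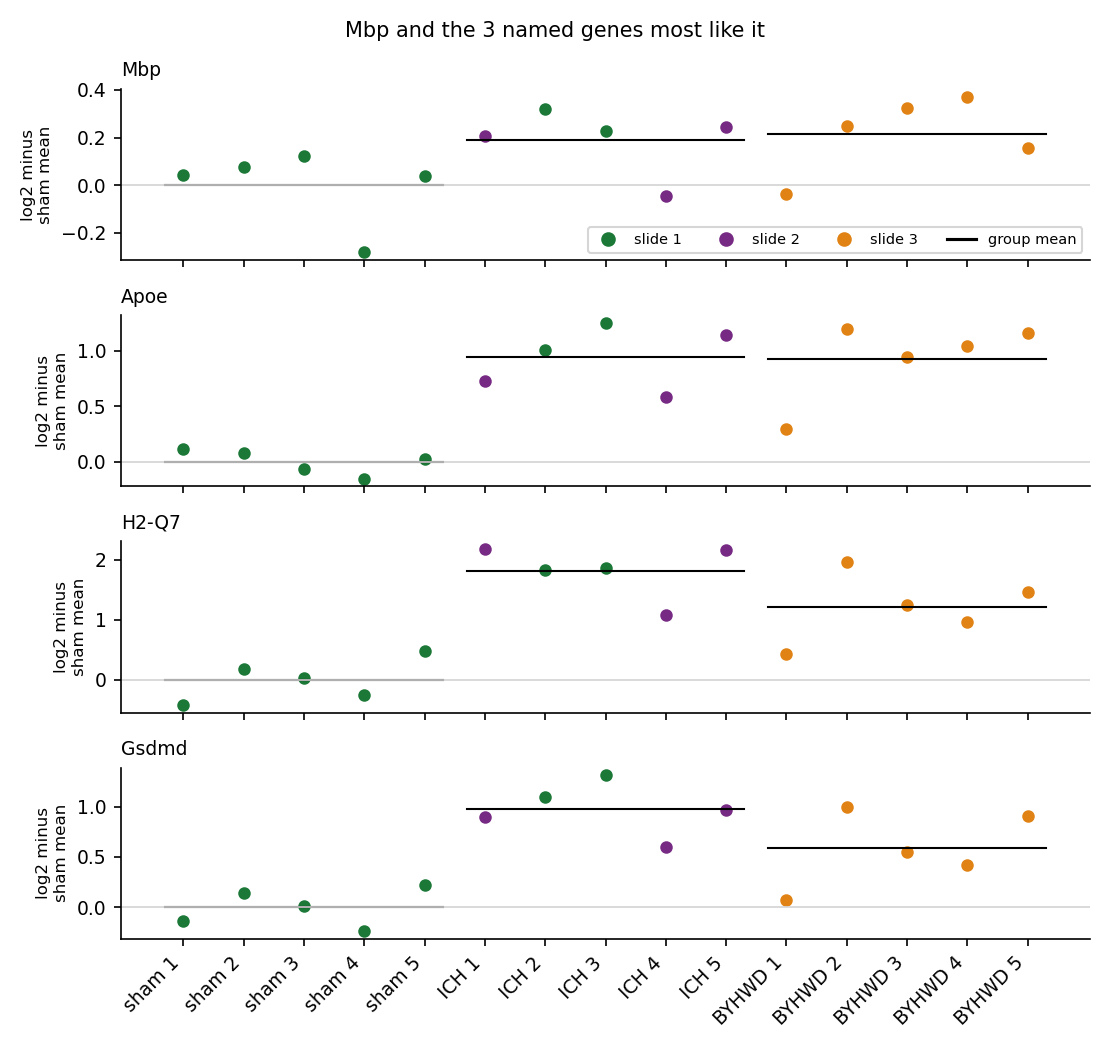
Log2 level minus the sham mean (vertical axes, each with its own range) of Mbp, Apoe, H2-Q7 and Gsdmd on the 15 arrays, with colour for the slide and lines at the group means. At the percentile scaling, ICH 4 and BYHWD 1 are the lowest arrays of their groups in all 4 panels, and the range of Mbp is the smallest of the 4. Apoe, H2-Q7 and Gsdmd were chosen for their likeness to Mbp over these same arrays.

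At the other end, the lowest Pearson correlations over the 15 arrays belonged to Olfr1307, an olfactory receptor gene (Pearson -0.62, Spearman -0.48), Atg3, a conjugating enzyme of autophagy (-0.32 and -0.40, and 0.036 by Pearson with quantiles), and Duox1, an oxidase that makes hydrogen peroxide (-0.30 and -0.06, and -0.76 by Pearson on slide 1). Here too the order depended on the measure: Spats1 was close to Duox1 by Pearson (-0.29) and lower by Spearman (-0.31), and with quantiles Pex11a (-0.81), Olfr166 (-0.78) and Lhx1 (-0.77) were the lowest. That of Olfr1307 rested on the extreme arrays, since without sham 4 and BYHWD 4 it was -0.18. On sham 4, where Mbp was lowest, Olfr1307 stood at 0.04 against -0.54 or less on the other sham arrays. Of the 51620 probes without an accession, none had a Pearson correlation with Mbp of 0.9 or more over the 15 arrays. The highest belonged to ASMM10LNC1A100111239V4 (0.87) and ASMM10AP1B122919407V4 (0.87), which the files do not pair with genes.

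Control probes for the ends of Gapdh, a sign of RNA integrity, and of Pgk1 were both lowest in sham and ordered ICH and BYHWD differently. For Gapdh the log2 signal of the 3' probe less that of the 5' probe was 0.23 ± 0.15 in sham (SD, n = 5). It was 0.61 ± 0.19 in the ICH group and 0.48 ± 0.10 under BYHWD (SD, n = 5 each). The value was 0.42 ± 0.14 on the ICH arrays of slide 1 (SD, n = 2) and 0.73 ± 0.10 on those of slide 2 (SD, n = 3). For Pgk1 the same difference was 7.51 ± 0.14 for sham, 7.67 ± 0.17 for ICH and 7.88 ± 0.06 for BYHWD (SD, n = 5 each), highest under BYHWD, where that of Gapdh was highest in ICH. On the ICH arrays it was 7.55 ± 0.18 on slide 1 (SD, n = 2) and 7.74 ± 0.14 on slide 2 (SD, n = 3), so both controls were higher on slide 2. The part of these differences in the Mbp values was not tested.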

How the data were processed

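Per the labels' protocols, TRIzol was used for RNA extraction and Cy3 as the dye, with 1 array per sample. The intensity of each spot stands in the deposited scanner files, which per the file headers were written by version 11.0.1.1 of Agilent Feature Extraction. The processed signal is corrected for background within each array and is not scaled between arrays. The median spot signal and its local background were also used. The authors' deposited table of log2 values has 34099 rows and does not hold the Mbp probe, so it was not used here; the sources used here do not say how it was made.

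Control spots (1439 of 62976) and spots marked as outliers (25 to 93 per array) were left out. Each array was scaled by its 75th percentile over the spots that are not controls, on the log2 scale, and the spots of a probe were averaged. The tests left out 132 special probes (spike-in, custom and negative ones by name) and 169 probes that lacked a value on some array. Probes well above background on at least 5 of 15 arrays were fitted by limma 3.58.1 in R 4.3.3, using every array and 2-sided tests, with Benjamini-Hochberg adjustment over 51669 probes and a threshold of 0.05. The slide effect was fitted with ICH split by slide. Slides came from the scan identifiers. The limma step was tested on simulated data.

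Of 50 accessions, 46 matched a symbol in RefSeq (GRCm38.p6). The array was designed on another build, so no coordinates are given, and no sequence of Mbp is printed. Named genes are Mbp, list members with a named probe (1 is not reported here), and the 3 genes with the highest and the 3 with the lowest Pearson correlation with Mbp. Mbp, the lists and the tests were chosen with earlier results of these data known. The files have no column of mean spot signal, so normexp used the median signal. Deviations of same-numbered samples from their group means correlated between -0.34 and 0.09, which gave no sign that replicate numbers pair the samples. The ICH arrays were split between slides, which could hide a pairing with them.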

Additional observations from a re-analysis of the deposited data

Results flagged for a closer look

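In groups of 5, an array counted as far from the others when its gap to the nearest, over the group's range, passed Dixon's 95% limit. Of 36 sets of values checked, 3 had such an array, where chance gives about 1 in 20. The Mbp level on sham 4 was 7.79, while its 4 fellow arrays lay at 8.11 to 8.20 (gap over range 0.791). The SD between the Mbp spots of ICH 5 was 0.154 log2 units, against 0.035 to 0.047 on the other ICH arrays (gap over range 0.905). The Apoe level on BYHWD 1 was 7.78, against 8.43 to 8.68 on the other BYHWD arrays (gap over range 0.717).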

How the results depend on the processing

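At the 75th percentile no comparison of Mbp passed the test, and among the alternatives that gave a difference of level for the 3 group comparisons 1 passed, ICH against sham after normexp with quantiles (log2 difference 0.45, limma adjusted p = 0.0483). The exact permutation tests of ranks also passed, for ICH and for BYHWD against sham (adjusted p = 0.0476 each). Without any scaling between arrays the differences turned to -0.34 for ICH and -0.31 for BYHWD against sham, and the ICH arrays of slide 2 lay -0.79 from those of slide 1 (limma adjusted p = 0.00136), where the median over all probes was -0.48, -0.50 and -0.57. For BYHWD against ICH the sign turned with quantiles (-0.15), with normexp and quantiles (-0.18), with normexp and the 75th percentile (-0.0040) and without the ICH arrays of slide 2 (-0.061). The ICH arrays of slide 2 lay above those of slide 1 with quantiles (0.42) and with normexp and quantiles (0.42, limma adjusted p = 0.0335). The cause of these changes was not tested. Leaving out single arrays gave 0.12 (without sham 4) to 0.25 (without ICH 4) for ICH against sham, -0.038 (without ICH 4) to 0.084 (without BYHWD 1) for BYHWD against ICH, with negative values also without BYHWD 3 (-0.0062) and BYHWD 4 (-0.02), 0.14 (without sham 4) to 0.28 (without BYHWD 1) for BYHWD against sham and -0.19 (without ICH 5) to -0.05 (without ICH 4) between the slides. None of these passed the test. With the replicate number as a block, for which no sign of a pairing was seen, the differences stayed 0.19, 0.02 and 0.21 with limma adjusted p of 0.337, 0.923 and 0.260. A random slide block gave 0.24, 0.01 and 0.25 (limma adjusted p 0.619, 0.988 and 0.755). Counts of probes past the test ran from 26 to 22016 (ICH against sham, main 2597), 1 to 13415 (BYHWD against ICH, main 3166) and 3 to 21739 (BYHWD against sham, main 8930) over the alternatives. With quantiles the Pearson correlation of Atg3 with Mbp turned to 0.036 and that of Olfr1307 was -0.11. The rank tests, the fit of quantiles with the slide as a block and the percentile over averaged probes were chosen after seeing the data. The authors' table could not serve as an alternative, since it lacks the probe.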
